A study of Mus musculus with 24 samples.

Results

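The interferon response and antigen presentation genes were 43 genes named from what their products do: RNA and DNA sensors, signalling factors, antiviral effectors, inducible GTPases and the machinery that loads peptides on MHC class I. They were chosen with earlier results of these data known, so their shares beside those of all genes only describe this set. Of these 43, 41 were measured among the 21072 genes of the arrays, each by 1 probe set that carries its symbol alone. Igtp was not measured by such a probe set, and the symbol cell of the probe set for Psmb9 has a blank second entry, so both stayed out of the tests. The cells were neural stem cells cultured from the subventricular zone of mice, the region beside the lateral ventricle that makes new neurons after birth. Cultures came from 3 wild-type mice (818, 862 and 870) and from 3 mice labelled Mll1-deleted (489, 814 and 858). All were grown for 5 to 7 passages with 5% fetal bovine serum, bovine pituitary extract, EGF and FGF, and sampled while dividing (day 0). They were sampled again on days 1, 2 and 4 after a change to a medium that kept the pituitary extract but held no serum, EGF or FGF. That gives 8 groups of 3 arrays, 1 array per mouse and day, and n = 3 mice for every group value below. Mll1, now Kmt2a, encodes a histone H3 lysine 4 methyltransferase. The labels give neither the allele nor the Cre driver behind the deletion, nor the age of the mice, nor whether the wild-type mice carry any part of either.

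Kmt2a (probe set 10592942) had group means of 388, 483, 592 and 299 in wild-type cultures on days 0, 1, 2 and 4, and 540.5, 597, 631 and 383 in cultures labelled Mll1-deleted. It was thus not lower under that label, but the position of the probes relative to the deleted part is not given, which leaves the label unchecked by these values. Array medians lay between 75.6 and 87.1, and the number of arrays limits the precision. The cultures expressed the markers of their labelled cell type, with Sox2 group means of 2927 to 4126 and Gfap of 1341 to 7555. Markers of 5 other cell types and of neuroblasts are given at the end.

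Interferons are secreted when a cell detects foreign nucleic acid. Type I interferon binds a receptor whose kinases phosphorylate Stat2. It joins Irf9, and the complex binds the interferon-stimulated response element in target promoters, while genes induced by interferon gamma often carry the gamma-activated site. The induced genes block viral RNA and protein synthesis, feed back on the pathway and raise peptide presentation on MHC class I. In the adult subventricular zone, interferon signalling is known to act on neural stem cells and microglia.

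The promoters of 7 members are shown because their interferon elements differ while the genes, described further on, take several courses in these cultures. Each is the RefSeq window of 250 bases before and 50 after the start site (build GRCm38.p6), 5′ to 3′ on the strand of the gene, with every match to the core of the response element, GAAANNGAAA or TTTCNNTTTC on the other strand, in capitals. The windows are chr19:34640639-34640938 (+) for Ifit1, chr19:34583279-34583578 (+) for Ifit3, chr19:34550444-34550743 (+) for Ifit2, chr8:71537423-71537722 (-) for Bst2, chr4:156200769-156201068 (-) for Isg15, chr3:142620413-142620712 (+) for Gbp2 and chr2:122147437-122147736 (+) for B2m.
Ifit1: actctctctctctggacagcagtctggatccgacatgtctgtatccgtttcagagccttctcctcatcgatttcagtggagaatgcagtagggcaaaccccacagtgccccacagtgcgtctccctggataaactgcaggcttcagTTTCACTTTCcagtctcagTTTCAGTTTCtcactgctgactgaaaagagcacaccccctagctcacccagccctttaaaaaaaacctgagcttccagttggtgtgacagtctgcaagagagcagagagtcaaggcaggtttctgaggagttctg
Ifit3: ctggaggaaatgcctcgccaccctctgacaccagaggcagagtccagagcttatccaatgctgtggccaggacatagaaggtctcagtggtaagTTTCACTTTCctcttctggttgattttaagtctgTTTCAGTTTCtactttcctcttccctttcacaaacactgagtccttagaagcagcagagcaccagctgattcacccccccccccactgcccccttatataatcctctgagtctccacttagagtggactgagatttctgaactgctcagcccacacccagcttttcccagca
Ifit2: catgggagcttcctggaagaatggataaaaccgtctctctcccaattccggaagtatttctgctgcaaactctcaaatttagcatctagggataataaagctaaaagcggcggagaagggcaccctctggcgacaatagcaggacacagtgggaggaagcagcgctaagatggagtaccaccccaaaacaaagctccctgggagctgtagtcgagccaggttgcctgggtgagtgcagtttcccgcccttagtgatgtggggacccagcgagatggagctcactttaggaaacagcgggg
Bst2: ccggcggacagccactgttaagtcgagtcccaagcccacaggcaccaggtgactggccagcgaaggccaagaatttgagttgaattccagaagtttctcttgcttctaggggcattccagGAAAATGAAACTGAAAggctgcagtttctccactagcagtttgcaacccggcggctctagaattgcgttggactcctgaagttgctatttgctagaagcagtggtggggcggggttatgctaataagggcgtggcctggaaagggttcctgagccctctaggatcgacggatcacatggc
Isg15: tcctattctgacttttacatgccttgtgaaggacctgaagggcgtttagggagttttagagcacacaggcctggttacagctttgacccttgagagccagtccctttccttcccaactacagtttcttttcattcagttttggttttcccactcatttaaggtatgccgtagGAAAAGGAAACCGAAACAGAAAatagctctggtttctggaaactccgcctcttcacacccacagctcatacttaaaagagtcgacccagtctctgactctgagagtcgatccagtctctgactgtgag
Gbp2: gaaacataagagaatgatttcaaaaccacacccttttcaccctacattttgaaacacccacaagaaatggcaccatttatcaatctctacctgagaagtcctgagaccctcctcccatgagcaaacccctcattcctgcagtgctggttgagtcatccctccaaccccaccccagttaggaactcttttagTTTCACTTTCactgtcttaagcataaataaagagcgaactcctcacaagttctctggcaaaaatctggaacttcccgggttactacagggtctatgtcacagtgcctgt
B2m: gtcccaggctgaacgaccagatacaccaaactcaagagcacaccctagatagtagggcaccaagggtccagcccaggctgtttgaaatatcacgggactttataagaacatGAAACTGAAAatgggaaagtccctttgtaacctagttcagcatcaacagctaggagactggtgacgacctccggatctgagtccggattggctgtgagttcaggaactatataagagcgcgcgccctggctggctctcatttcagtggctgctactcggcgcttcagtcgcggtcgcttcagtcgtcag

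Ifit1 and Ifit3 each hold 2 separate cores, Bst2 holds 2 that overlap, Isg15 holds 3 that overlap, and Gbp2 and B2m hold 1 each. The Ifit2 window has none, and neither has the second start site that RefSeq lists for it. Of the 41 measured members, 32 had a RefSeq promoter, and 13 of the 32 (40.6%) held a core, against 3.44% of all 32851 promoters of this length and 3.86% of the 15363 genes of the arrays with a promoter. The gamma-activated site, searched as TTCNNNGAA on both strands, was in 7 of the 32 (21.9%), against 8.3% of promoters and 8.97% of genes. In Bst2 a gamma-activated site overlaps the response element by 3 bases (bases -136 to -128 and -130 to -121 from the start site). The printed Ifit2 window holds a gamma-activated site at bases -241 to -233. A match describes letters only and is not evidence of binding. No entry was found for Dhx58, Zbp1, Usp18, Parp9, Parp14, Mx1, Mx2, Rtp4 and Tap2.

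**Figure D1:**
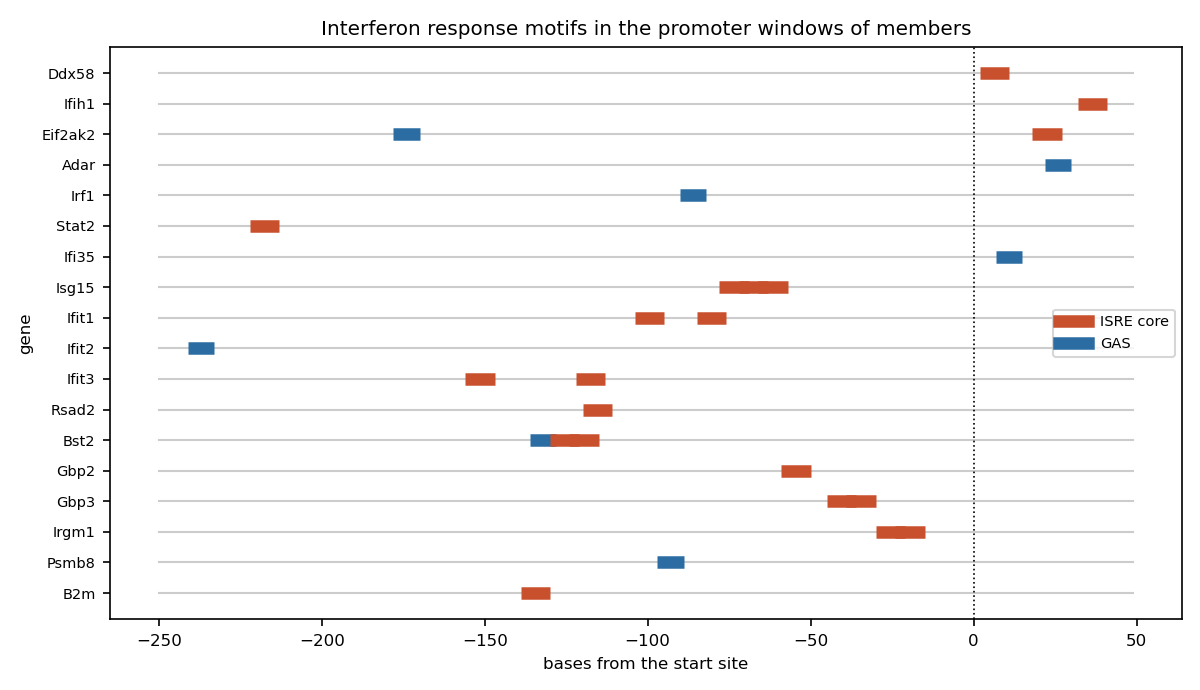
Positions of response element cores (ISRE) and gamma-activated sites (GAS) in the promoters of the members that hold either, in bases from the RefSeq start site. Grey lines mark the window that was searched. Most cores lie upstream of the start site, and those of Ddx58, Eif2ak2 and Ifih1 lie just after it.

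Most members were dim. Intensities are the RMA values as deposited, on a linear scale. A group mean is the mean of log2 values turned back to an intensity, and intensities of different probe sets are not compared as levels of their genes. The mean over 24 arrays ran from 12.8 (Mx1) to 1441 (B2m), and 21 of 41 members had a mean under 100. A group mean below the lower quartile of its arrays (24.5 to 27.2) is called near the floor here. Mx1, Mx2 and Sp100 were near the floor in all 8 groups, Ifit1 was so on day 0 in both genotypes, and the other 37 were so in no group.

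A gene is said to rise, fall or differ where limma's moderated test gave an adjusted p under 0.05 (2-sided, adjusted by Benjamini-Hochberg across all 21072 genes). Differences are in log2 units with their standard error (±). All 3 days of a genotype are compared with the same 3 arrays of day 0. A lower signal in a culture can come from fewer cells of a type or from less RNA per cell, which these arrays cannot tell apart.

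In wild-type cultures more members rose than fell after serum and growth factors were withdrawn. On day 1, 12 of 41 members rose and 1 fell, against 11.7% of all genes that rose and 13.8% that fell. On day 2, 15 rose and 3 fell (all genes 15.6% and 18%), and on day 4, 18 rose and 2 fell (17.1% and 20.4%). The share of members that rose was thus 29.3%, 36.6% and 43.9%, and their median difference 0.23, 0.23 and 0.25, against 0.02, 0.06 and 0.05 over all genes. Irf7, Irf9, Usp18, Ifit1, Ifit3, Oasl2, Cmpk2, Xaf1, Lgals3bp, Gbp2 and Tapbp rose on all 3 days. Of 8 neuroblast markers, 5, 8 and 8 rose there on the same days, and their part in the counts was not tested. Leaving out any 1 mouse gave 10 to 13, 13 to 18 and 17 to 21 called members on the 3 days. With arrays shifted to a common median, which moved the median of all genes by at most 0.094, the split on days 2 and 4 was 12 up and 3 down and 16 up and 2 down.

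Fewer members, and fewer of all genes, rose in cultures labelled Mll1-deleted than in wild-type cultures. On day 1, 4 of 41 rose and 2 fell (all genes 5.87% and 6.52%). On day 2, 2 rose and 7 fell (9.41% and 13.9%), and on day 4, 9 rose and 7 fell (13.9% and 15.7%). As shares of the members, the rises were 9.76%, 4.88% and 21.95% on the 3 days. They passed the share of all genes on days 1 and 4 and not on day 2. The falls of days 2 and 4, 17.1% of the members each, are near the share of all genes. Median differences were 0.02, -0.06 and 0.13 for the members and -0.02, 0.02 and 0.06 for all genes. Gbp2 and Tapbp alone rose on all 3 days, while Bst2 fell on all 3. These counts rest on few arrays. The 6 called members of day 1 became 2 without mouse 814, 3 without 489 or 858, and 0 in a fit to the arrays compared alone. They also became 3 without the wild-type mouse 818 or 870, which gave no array to this comparison. The 9 of day 2 became 4 without mouse 489 or 814, and the 16 of day 4 became 10 without 489. With a common median the day 4 split was 6 up and 9 down.

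**Figure D2:**
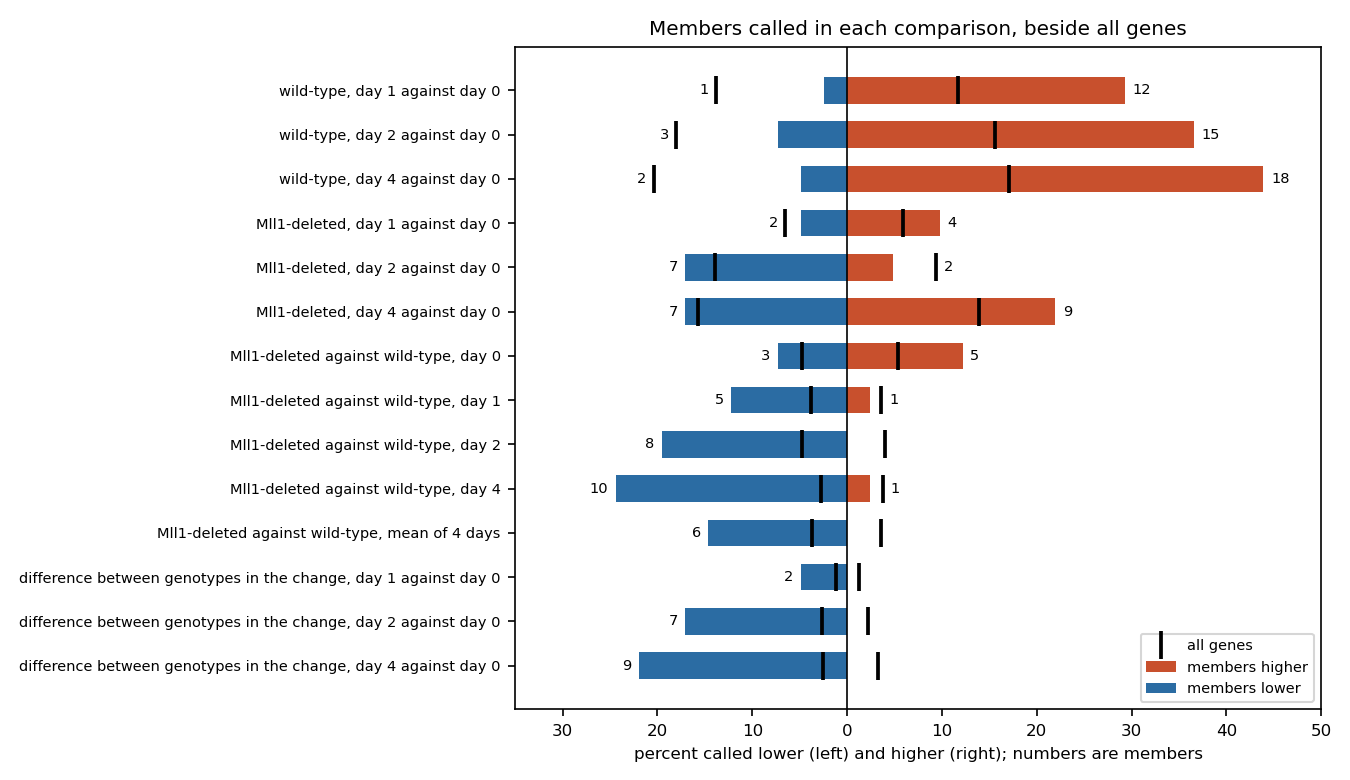
Percent of the 41 members (bars, with their number) and of all 21072 genes (ticks) called higher (to the right) or lower (to the left) in each of 14 comparisons. The bars pass the ticks to the right in wild-type cultures on all 3 days (29.3% to 43.9% of members) and to the left in the differences between genotypes in the change.

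Whether these changes differed between the genotypes was tested directly, as the interaction of genotype and day. A negative value means that the gene rose less, or fell more, in cultures labelled Mll1-deleted. On day 1, 2 members had a lower change and 0 a higher one (all genes 1.15% and 1.28%; 14 members lower and 0 higher at an unadjusted p under 0.05). On day 2, 7 were lower and 0 higher (2.62% and 2.18%; 16 and 0 unadjusted), and on day 4, 9 and 0 (2.56% and 3.27%; 17 and 1 unadjusted). Medians were -0.23, -0.31 and -0.31 for the members, against -0.02, -0.02 and 0.03 for all genes. With the mouse as a fixed block, 4 members were called on day 1 and 12 on day 2. Without 1 mouse at a time the day 1 count became 0 (489, 814, 862 or 870) or 1 (818). The day 2 count became 3 without 489, 4 without 862 or 870 and 11 without 858, and the day 4 count became 5 without 489 or 862. Without 858 some changes were higher under the Mll1-deleted label: 1 of 2 called on day 1, 1 of 11 on day 2 and 2 of 11 on day 4.

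**Figure D3:**
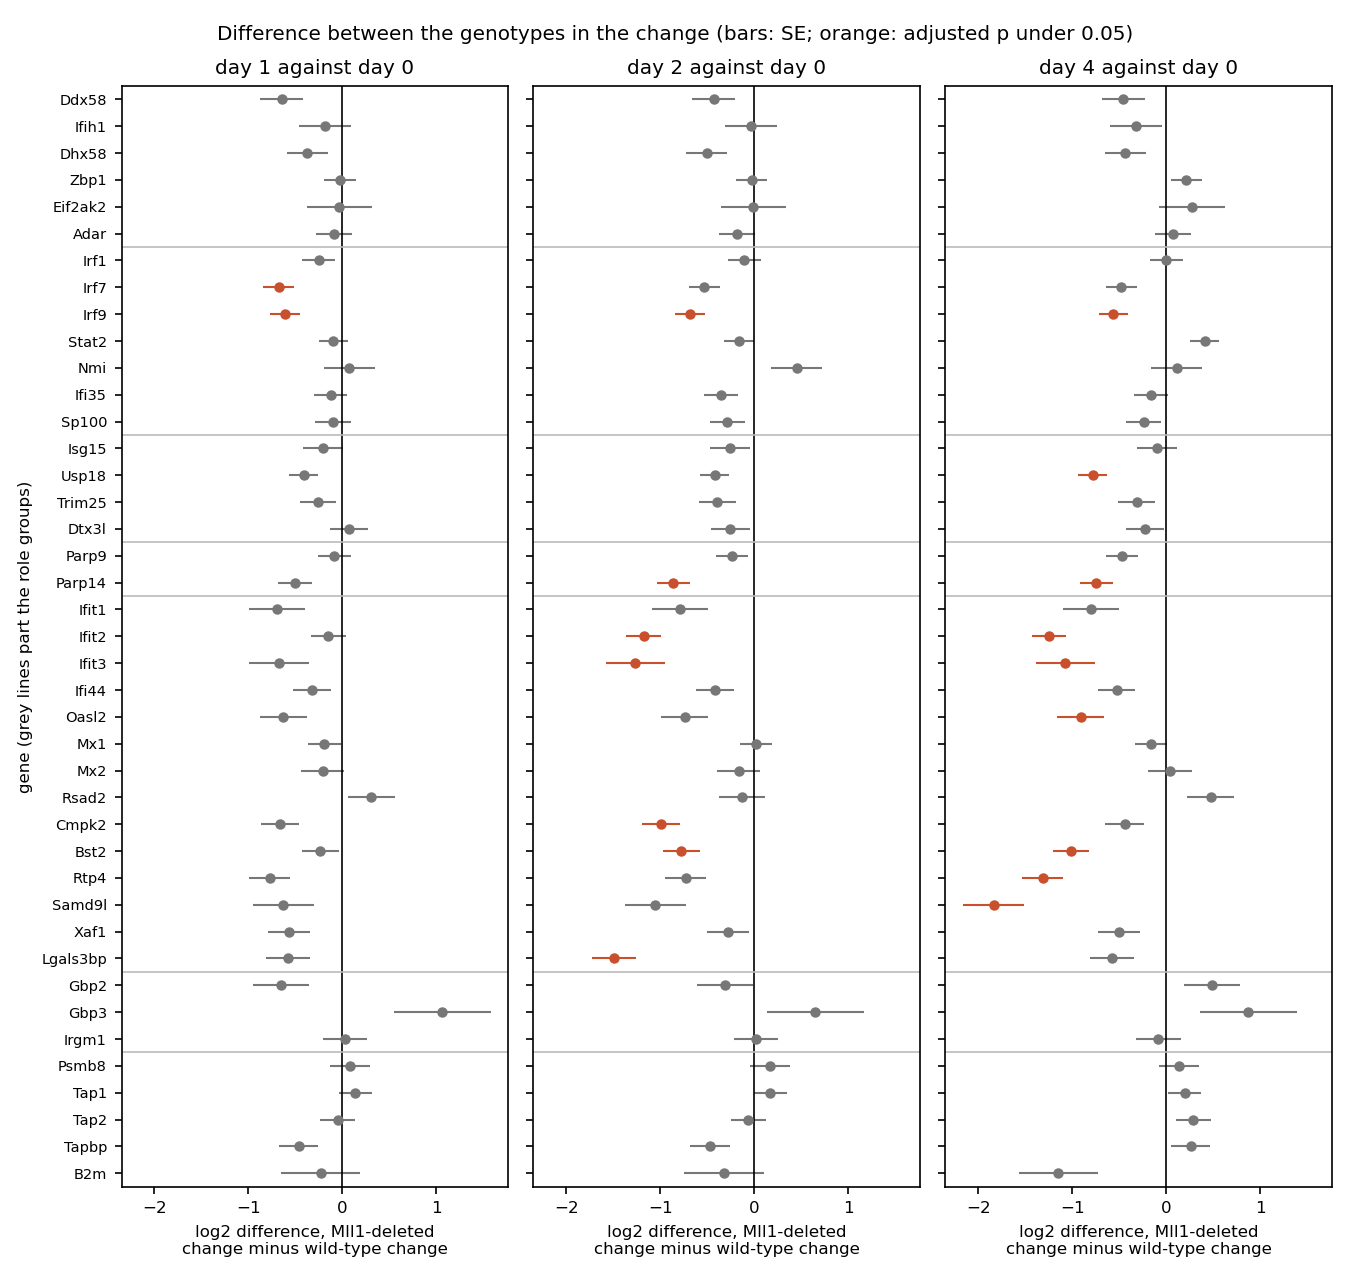
Difference between genotypes in the change from day 0 (log2, Mll1-deleted minus wild-type) for each member on days 1, 2 and 4, with its standard error. Orange points are called and grey points are not. All called members lie below 0, from -0.56 (Irf9, day 4) to -1.83 (Samd9l, day 4).

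On single days the genotypes differed in both directions before differentiation and mostly in 1 direction after. On day 0, 5 members were higher in cultures labelled Mll1-deleted and 3 lower (all genes 5.41% and 4.71%). On day 1, 1 was higher and 5 lower (3.61% and 3.84%), on day 2, 0 and 8 (4.01% and 4.73%; 1 and 15 unadjusted), and on day 4, 1 and 10 (3.73% and 2.73%). Over the mean of the 4 days, with the mouse as the unit, 0 were higher and 6 lower (3.59% and 3.71%; 3 and 14 unadjusted): Trim25, Ifit2, Ifit3, Oasl2, Cmpk2 and Lgals3bp. The day 0 count of 8 became 2 without mouse 862, 3 without 870, 4 without 489 or 814 and 5 without 818. The day 1 count of 6 became 2 without 489, 814 or 870 and 3 without 818 or 862. Without 489, 814, 818 or 870 the day 2 count of 8 became 5, and the day 4 count of 11 became 6 without 489 or 814 and 7 without 818 or 862. The 6 of the 4-day mean became 3 without 814 and 10 without 858 (2 of them higher). In a fit to the compared arrays alone, the counts were 2 on day 1 and 4 on day 4, and on day 0 the split turned to 2 higher and 4 lower. It also turned without 489, to 1 higher and 3 lower.

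**Figure D4:**
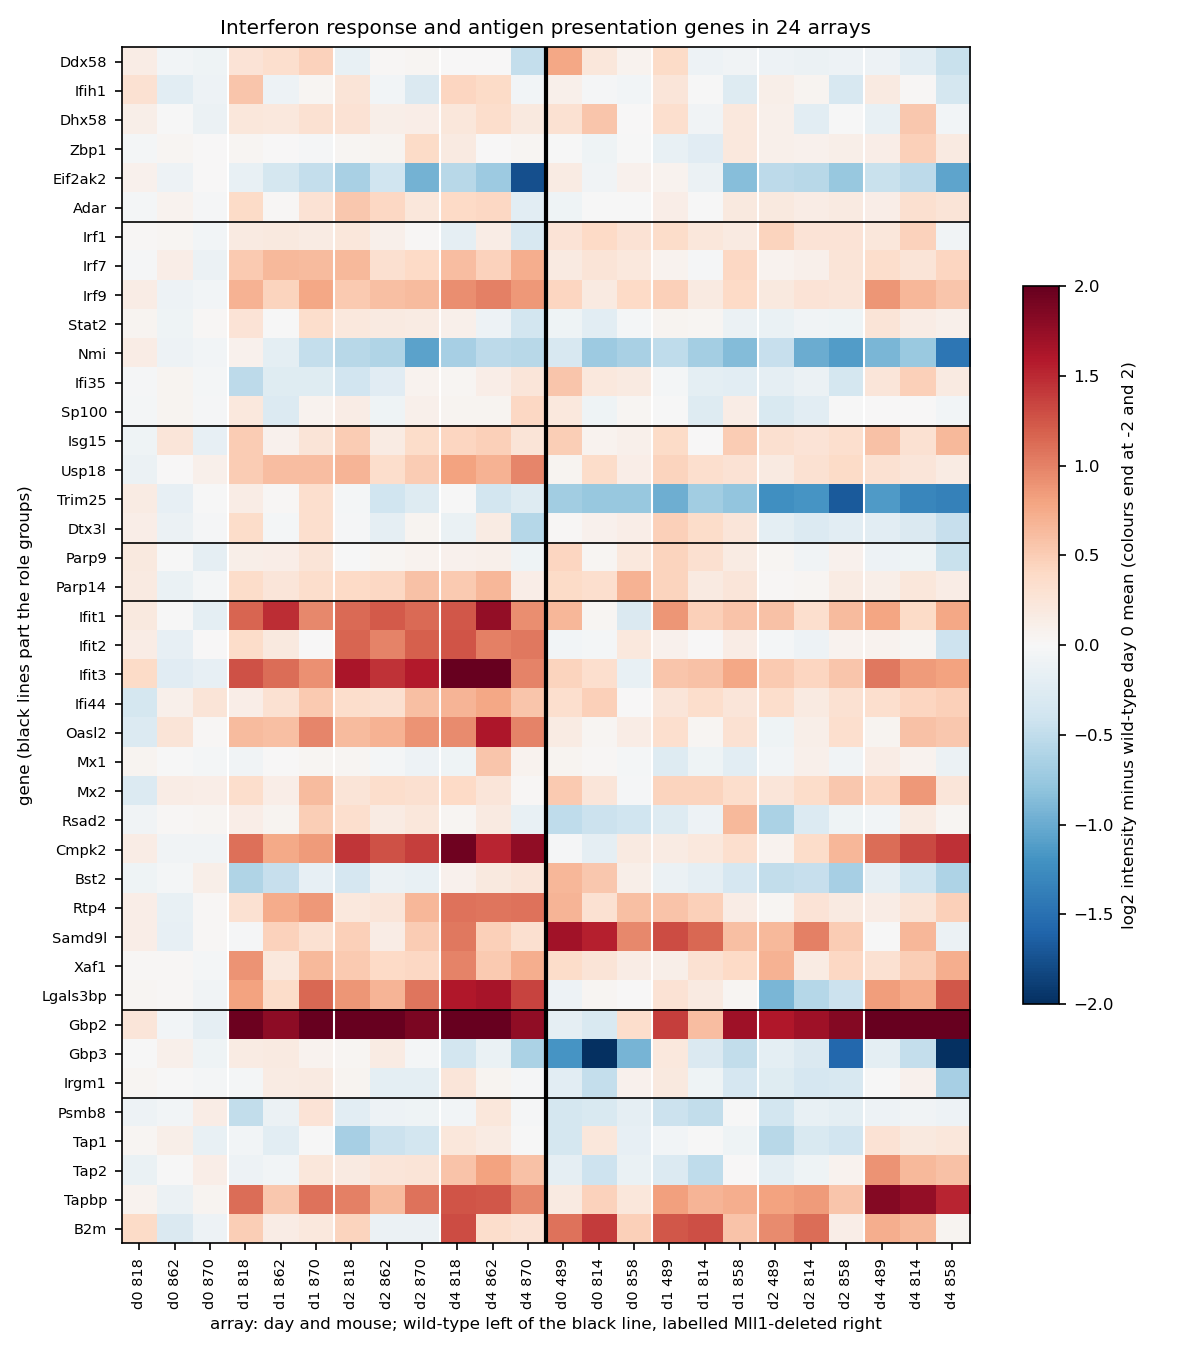
Log2 intensity of each of the 41 members in each of the 24 arrays, minus the mean of that member in wild-type cultures on day 0, with members ordered by role and arrays by genotype, day and mouse. The median of the members in an array was 0.16 to 0.40 above that mean in wild-type cultures on days 1 to 4 and 0.02 to 0.27 above it in cultures labelled Mll1-deleted.

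In the accounts of single members, values are intensities, given for mice 818, 862 and 870 in wild-type cultures and for mice 489, 814 and 858 in cultures labelled Mll1-deleted, in this order. Members with the widest range between group means in their role are given in full, as are Irf7, Irf9, Stat2, Isg15 and B2m. Ifit1, Ifit2, Samd9l, Bst2, Rtp4 and Oasl2 were added after their values were seen.

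Among the 6 sensors, which bind foreign or misplaced nucleic acid, few changes passed the test, and 0 differed between the genotypes on any day or in the change (at an unadjusted p under 0.05, Ddx58 on day 0 and in the day 1 change, and Dhx58 in the day 2 change). With 6 genes, 0 is near the share of all genes. That share was 2.73% to 5.41% in each direction on a day and 1.15% to 3.27% in the change. Eif2ak2 (probe set 10452980) encodes PKR, the kinase that halts translation on double-stranded RNA. It read 361, 316 and 339 in wild-type cultures on day 0, 306, 266 and 242 on day 1, 215, 257 and 176 on day 2, and 232, 204 and 99.9 on day 4. Eif2ak2 in cultures labelled Mll1-deleted read 379.6, 323 and 358 on day 0, 357, 312 and 188 on day 1, 236, 229.6 and 200.3 on day 2, and 248, 235 and 163 on day 4. Both genotypes went down without overlap between day 0 and day 4, by -1.01 ± 0.25 in wild-type cultures (adjusted p = 0.00214) and -0.74 ± 0.25 under the Mll1-deleted label (adjusted p = 0.0269). The first call did not hold without 870 (0.0545) and the second without 489, 814 or 858 (0.0624 to 0.15). The wild-type fall on day 2, -0.67 ± 0.25 (adjusted p = 0.0408), was lost without any of 5 mice (0.0516 to 0.154). A second probe set for Eif2ak2 (10452978), shared with another symbol and not tested, did not separate day 0 from day 4. Its wild-type arrays read 644 to 815 on day 0 and 474 to 657 on day 4. Under the Mll1-deleted label they read 616 to 793 and 555 to 761.

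Ddx58 (probe set 10512067), the RNA sensor RIG-I, read 285, 246 and 242 in wild-type cultures on day 0, 309, 326 and 355 on day 1, 231, 262 and 262 on day 2, and 259, 259 and 184 on day 4. Ddx58 under the Mll1-deleted label read 438, 299 and 271, then 333, 240.3 and 245, then 239.9, 237 and 239.6, and on day 4 238, 223 and 189. Day 0 was the highest day in these cultures and mouse 489 its highest array. Ddx58 fell there by day 2 (-0.46 ± 0.16, adjusted p = 0.044, lost without 489, 814, 818 or 862 at 0.0568 to 0.336 and with the compared arrays alone at 0.102) and by day 4 (-0.61 ± 0.16, adjusted p = 0.0067). Adar (probe set 10493565), which edits adenosine in double-stranded RNA, read 326, 351 and 331 on day 0 and 489, 446 and 392 on day 2 in wild-type cultures. That rise of 0.39 ± 0.13 (adjusted p = 0.0262) did not overlap, and it did not hold without 818 (0.205) or 862 (0.0602) and with arrays shifted to a common median (adjusted p = 0.0875). Its other wild-type readings were 438, 339.9 and 412 on day 1 and 442, 446 and 291 on day 4, and under the Mll1-deleted label it read 315, 335 and 332.5, then 369.5, 335 and 385, then 384, 370.4 and 381, and on day 4 369, 419 and 401. Ifih1 (MDA5), Dhx58 (LGP2) and Zbp1 had no call in any comparison, with group means of 42.6 to 52.7, 35.8 to 44.9 and 34.7 to 43.1.

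Of the 7 transcription factors and signalling regulators, 2 (Irf7 and Irf9) had a lower change under the Mll1-deleted label on day 1 and Irf9 alone on days 2 and 4. Irf9 (probe set 10415319), the DNA-binding partner of Stat2, read 147, 124 and 127 in wild-type cultures on day 0, 214, 181 and 226 on day 1, 192, 200.3 and 205 on day 2, and 252, 266 and 242 on day 4. Each wild-type day lay above day 0 without overlap, with rises of 0.64 ± 0.11, 0.58 ± 0.11 and 0.93 ± 0.11 (adjusted p = 1.8e-04, 2.7e-04 and 6.5e-07). Irf9 in cultures labelled Mll1-deleted read 178, 149 and 174 on day 0, 185, 150.1 and 175 on day 1, 153, 159.6 and 156 on day 2, and 245, 210.4 and 196 on day 4. These cultures stayed at their day 0 level until day 2 and rose by day 4 (0.37 ± 0.11, adjusted p = 0.0147, lost without 489 or 814 at 0.103 and 0.124, with the compared arrays alone at 0.0646 and with a common median at 0.0526). The difference in the change was -0.61 ± 0.16, -0.68 ± 0.16 and -0.56 ± 0.16 on the 3 days (adjusted p = 0.0395, 0.013 and 0.0384). On no single day did the genotypes differ past the threshold (adjusted p = 0.0606 to 0.286), and day 0 was higher under the Mll1-deleted label (0.33 ± 0.11) and later days lower (-0.23 to -0.35). The call of day 1 was lost without any of the 6 mice (0.056 to 0.268), that of day 2 without 489, 862 or 870 (0.0659 to 0.0956) and that of day 4 without any of the 6 (0.0634 to 0.182). With the compared arrays alone the day 1 and day 4 calls were lost as well (0.139 and 0.0821), and with a common median the day 1 call (0.0529).

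Irf7 (probe set 10569102), a factor that amplifies interferon production, read 46.8, 51.8 and 43.8 in wild-type cultures on day 0, 68.1, 74.4 and 73.3 on day 1, 74.1, 59.2 and 62.5 on day 2, and 72.9, 64.9 and 78.6 on day 4. Irf7 under the Mll1-deleted label read 53.5, 56.9 and 54.9, then 49.5, 46.3 and 62.9, then 49.5, 50.8 and 56.7, and on day 4 60.2, 56.9 and 63.7. Irf7 rose 1.52-fold by day 1 in wild-type cultures (0.60 ± 0.12, adjusted p = 4.4e-04) and did not rise past the threshold on any day in the others (-0.08 to 0.13). On day 1 all 3 arrays labelled Mll1-deleted lay below all 3 wild-type ones (-0.45 ± 0.12, adjusted p = 0.018), and the change differed by -0.67 ± 0.16 (adjusted p = 0.0282). Both calls were lost with the compared arrays alone (0.139 and 0.0821), the first also without 489, 814, 862 or 870 (0.0663 to 0.193) and the second without 489, 814, 818, 862 or 870 (0.0745 to 0.26). The wild-type rise on day 2, 0.46 ± 0.12, was lost without 818 (adjusted p = 0.0853).

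Stat2 (probe set 10367224), which joins Irf9 on the response element, had no call in any comparison. It read 193, 174 and 189 in wild-type cultures on day 0, 223, 184 and 236 on day 1, 214, 209.8 and 207 on day 2, and 198, 172 and 144 on day 4. Stat2 in cultures labelled Mll1-deleted read 175, 160.5 and 179.7, then 193, 190.1 and 171, then 168, 177 and 175, and on day 4 222, 206 and 199. The genotypes overlapped on days 0 and 1 and not on days 2 and 4, with opposite order (-0.27 ± 0.11, adjusted p = 0.157, and 0.30 ± 0.11, adjusted p = 0.135).

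Nmi (probe set 10482517) and Ifi35 encode partner proteins that bind each other and Stat factors, and they did not move together. Nmi read 139, 116 and 121 in wild-type cultures on day 0, 133, 109 and 89.9 on day 1, 85.0, 82.0 and 59.1 on day 2, and 78.7, 86.4 and 84.6 on day 4. Nmi under the Mll1-deleted label read 99.5, 75.6 and 79.5, then 87.5, 77.9 and 68.4, then 90.8, 62.7 and 57.2, and on day 4 66.1, 74.3 and 45.6. All 3 of these cultures began below the wild-type ones (-0.57 ± 0.18 on day 0, adjusted p = 0.0488, lost without 5 of the 6 mice, 489 being the exception, at 0.0641 to 0.214 and without the random effect at 0.0679). Wild-type cultures then fell by -0.74 ± 0.19 on day 2 (adjusted p = 0.00395, lost without 870 at 0.0645) and -0.59 ± 0.19 on day 4 (adjusted p = 0.0189, lost without 818 or 862 at 0.149 and 0.0589).

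Ifi35 (probe set 10381408) read 84.8, 89.997 and 84.1 in wild-type cultures on day 0, 59.7, 72.9 and 73.0 on day 1, 66.0, 73.7 and 90.5 on day 2, and 88.7, 95.0 and 102 on day 4. Ifi35 in cultures labelled Mll1-deleted read 126, 100.0 and 97.9, then 83.7, 75.7 and 74.5, then 76.1, 79.6 and 67.5, and on day 4 102, 120.1 and 97.8. It dipped there without overlap on day 1 (-0.46 ± 0.13, adjusted p = 0.0179, lost without 489, 814 or 858 at 0.0528 to 0.174 and with the compared arrays alone at 0.111) and day 2 (-0.53 ± 0.13, adjusted p = 0.00365, lost without 489 at 0.0703). The wild-type dip of day 1 did not pass (-0.34 ± 0.13, adjusted p = 0.0554), and the change did not differ between genotypes past the threshold. Irf1, an activator of interferon gamma targets, had group means of 115.5 to 158 and no call. Sp100, a nuclear body protein, stayed near the floor.

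The ISG15 system held Trim25, the 1 member of 41 that differed between the genotypes on all 4 days. Isg15 is a ubiquitin-like protein, Usp18 removes it from its targets, and Trim25 is a ubiquitin ligase known in human cells to activate RIG-I. Trim25 (probe set 10380260) read 107, 86.0 and 95.9 in wild-type cultures on day 0, 106, 97.8 and 121 on day 1, 93.2, 72.9 and 79.8 on day 2, and 95.1, 74.1 and 80.3 on day 4. Trim25 in cultures labelled Mll1-deleted read 58.9, 56.8 and 56.7 on day 0, 48.5, 59.1 and 55.4 on day 1, 40.8, 42.5 and 29.9 on day 2, and 43.6, 38.7 and 37.5 on day 4. On every day all 3 arrays of the Mll1-deleted label lay below all 3 wild-type arrays, 1.67-fold on day 0 (-0.74 ± 0.13, adjusted p = 6.2e-04) and 2.19-fold on day 2 (-1.13 ± 0.13, adjusted p = 6.8e-06). Days 1 and 4 had -0.996 ± 0.13 and -1.05 ± 0.13 (adjusted p = 3.5e-05 and 2.4e-05), and the mean of 4 days -0.98 ± 0.09 (adjusted p = 8.1e-04). All 5 calls held under every alternative that was run. Trim25 also fell within these cultures by day 2 (-0.62 ± 0.14, adjusted p = 0.00184) and day 4 (-0.53 ± 0.14, adjusted p = 0.00533), while the difference in the change did not pass (adjusted p = 0.315 to 0.647).

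Usp18 (probe set 10541307) rose in wild-type cultures on all 3 days. It read 34.4, 37.5 and 40.1 in wild-type cultures on day 0, 53.0, 57.3 and 56.9 on day 1, 59.6, 47.7 and 53.3 on day 2, and 65.0, 60.5 and 73.6 on day 4. Usp18 in cultures labelled Mll1-deleted read 38.7, 48.3 and 41.0, then 50.9, 47.0 and 45.6, then 42.2, 45.8 and 48.6, and on day 4 45.8, 44.2 and 41.8. Wild-type arrays lay above day 0 on each day (0.58 ± 0.11, 0.52 ± 0.11 and 0.83 ± 0.11, adjusted p = 3.2e-04, 6.7e-04 and 2.0e-06), while the other cultures had 0.17, 0.10 and 0.05, none of them called. On day 4 the genotypes did not overlap (-0.59 ± 0.11, adjusted p = 0.00161), and the change differed by -0.78 ± 0.15 (adjusted p = 0.00352). Those 2 calls held under every alternative.

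Isg15 (probe set 10451287) itself was dim and changed little. Its readings were 32.3, 40.7 and 30.8 in wild-type cultures on day 0, 48.8, 36.5 and 41.2 on day 1, 48.9, 38.6 and 44.1 on day 2, and 46.5, 48.0 and 41.0 on day 4, against 48.4, 36.0 and 36.8, then 45.0, 34.4 and 48.8, then 42.8, 41.7 and 43.3, and on day 4 51.8, 42.5 and 54.0 under the Mll1-deleted label. The wild-type rise by day 4 (0.39 ± 0.15, adjusted p = 0.0464) was lost without 489, 818, 862 or 870 (0.0525 to 0.207) and with a common median (0.123), and the genotypes overlapped on every day. Dtx3l (probe set 10439268) is a ubiquitin ligase that works with Parp9. It read 130.3, 109 and 116 in wild-type cultures on day 0, 152, 115 and 149 on day 1, 116, 104 and 122 on day 2, and 108, 133 and 79.5 on day 4. Dtx3l under the Mll1-deleted label read 119.9, 126 and 129, then 165, 153 and 140.3, then 103, 97.8 and 103, and on day 4 102, 97.1 and 86.0. Its fall there by day 4 (-0.40 ± 0.14, adjusted p = 0.0381) was lost without 489, 814, 818 or 858 (0.0511 to 0.249).

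The ADP-ribosyltransferase genes Parp14 and Parp9 lie next to Dtx3l on chromosome 16. Parp14 (probe set 10439249) read 107, 85.9 and 91.8 in wild-type cultures on day 0, 122, 112 and 121 on day 1, 125, 126 and 142 on day 2, and 135, 149 and 104 on day 4. Parp14 in cultures labelled Mll1-deleted read 124, 119 and 152 on day 0, 129, 107 and 112 on day 1, 95.8, 97.4 and 106 on day 2, and 103, 111 and 105 on day 4. The order of the genotypes turned over: the Mll1-deleted label was higher on day 0 (0.47 ± 0.13, adjusted p = 0.0228, lost without 489, 858, 862 or 870 at 0.0549 to 0.124 and with the compared arrays alone at 0.0797) and lower on day 2 without overlap (-0.39 ± 0.13, adjusted p = 0.07). Wild-type cultures rose on day 2 (0.46 ± 0.13, adjusted p = 0.00604, lost without 870 at 0.0561) and on day 4 (0.44 ± 0.13, adjusted p = 0.00819, lost without 862 at 0.222), where mouse 870 overlapped day 0. Cultures labelled Mll1-deleted fell on day 2 (-0.39 ± 0.13, adjusted p = 0.0258, lost without 489, 814 or 858 at 0.0726 to 0.17 and with the compared arrays alone at 0.0537). The change differed by -0.86 ± 0.18 on day 2 (adjusted p = 0.00542, held under every alternative) and -0.74 ± 0.18 on day 4 (adjusted p = 0.0153, lost without 489, 858 or 862 at 0.0556 to 0.15 and with the compared arrays alone at 0.0596).

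Parp9 (probe set 10435457) read 184, 159.5 and 142 in wild-type cultures on day 0, 175, 176 and 193 on day 1, 159.9, 166 and 169 on day 2, and 171, 173 and 151 on day 4. Parp9 under the Mll1-deleted label read 216, 165 and 187, then 219.5, 200.4 and 181, then 165, 153 and 172, and on day 4 151, 151 and 118. Only the fall by day 4 in the latter passed (-0.43 ± 0.12, adjusted p = 0.00882, lost without 489 or 858 at 0.07 and 0.108 and with the compared arrays alone at 0.0623).

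Antiviral effectors were the largest group, with 14 members, and held most of the calls. In wild-type cultures 7, 8 and 10 of them rose on days 1, 2 and 4 (all genes 11.7%, 15.6% and 17.1%), with medians of 0.48, 0.43 and 0.91, against 1, 0 and 4 in cultures labelled Mll1-deleted (all genes 5.87%, 9.41% and 13.9%), with medians of 0.08, 0.00 and 0.26. Falls were 1, 0 and 0 in wild-type cultures (all genes 13.8%, 18% and 20.4%) and 1, 3 and 2 in the others (6.52%, 13.9% and 15.7%). With 14 genes, the falls under the Mll1-deleted label are near the share of all genes. Between the genotypes 0, 5 and 6 had a lower change on these days (all genes 1.15%, 2.62% and 2.56%) and 0 a higher one.

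The 3 Ifit genes, whose products bind foreign RNA and block its translation, rose in wild-type cultures at different times. Ifit2 (probe set 10462613) read 335, 269 and 303 in wild-type cultures on day 0, 388, 347 and 304 on day 1, 679, 601 and 687 on day 2, and 721, 604 and 624 on day 4. Ifit2 in cultures labelled Mll1-deleted read 289.8, 292 and 349 on day 0, 321, 304 and 332 on day 1, 294, 281 and 317 on day 2, and 318, 308 and 226 on day 4. The wild-type arrays fell into a lower range of 269 to 388 on days 0 and 1 and a higher one of 601 to 721 on days 2 and 4, and no array of the Mll1-deleted label reached the higher range. The rise was 2.17-fold by day 2 (1.12 ± 0.13, adjusted p = 6.8e-07) and 2.15-fold by day 4 (1.11 ± 0.13, adjusted p = 4.7e-07). Genotypes differed on day 2 (-1.14 ± 0.13, adjusted p = 5.0e-06), on day 4 (-1.21 ± 0.13, adjusted p = 4.6e-06) and in the mean of 4 days (-0.61 ± 0.08, adjusted p = 0.00294). The change differed by -1.18 ± 0.18 and -1.24 ± 0.18 (adjusted p = 4.8e-04 and 2.8e-04). All of these Ifit2 calls held under every alternative. The printed Ifit2 promoter holds no response element core but does hold a gamma-activated site, and the part of either in these values was not tested.

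Ifit3 (probe set 10462618), which lies next to Ifit2 on chromosome 19, rose a day earlier. Its wild-type readings were 42.9, 28.2 and 29.5 on day 0, 79.5, 71.2 and 62.1 on day 1, 102, 89.7 and 99.4 on day 2, and 137, 156 and 65.4 on day 4. Ifit3 under the Mll1-deleted label read 44.8, 41.5 and 29.8, then 48.5, 49.2 and 56.2, then 47.4, 44.2 and 48.6, and on day 4 68.2, 59.6 and 57.3. Wild-type rises were 1.10 ± 0.22, 1.56 ± 0.22 and 1.76 ± 0.22 (adjusted p = 7.3e-04, 1.0e-05 and 1.4e-06), and the other cultures rose by day 4 alone (0.69 ± 0.22, adjusted p = 0.0225, lost without 489, 814 or 858 at 0.0748 to 0.147). On day 2 the genotypes were apart (-1.05 ± 0.22, adjusted p = 0.00341), and on day 4 they differed (-0.86 ± 0.22, adjusted p = 0.02) although mouse 870, at 65.4, lay inside the range of the Mll1-deleted label. The day 4 call was lost without 489, 814, 818 or 862 (0.061 to 0.165) and with the compared arrays alone (0.135), and that of the 4-day mean (-0.54 ± 0.12, adjusted p = 0.0308) without the same 4 mice (0.0702 to 0.111). The difference in the change was -1.26 ± 0.32 on day 2 (adjusted p = 0.021, lost without 489, 814 or 862 at 0.0621 to 0.148) and -1.07 ± 0.32 on day 4 (adjusted p = 0.0479, lost without 489, 814, 818 or 862 at 0.0838 to 0.317, with the compared arrays alone at 0.144 and with a common median at 0.0505).

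Ifit1 (probe set 10462623) started near the floor, at 23.8, 20.7 and 18.2 in wild-type cultures on day 0, and then read 46.5, 57.6 and 40.7 on day 1, 45.7, 48.7 and 45.4 on day 2, and 49.2, 70.2 and 39.4 on day 4. Ifit1 in cultures labelled Mll1-deleted read 33.1, 21.3 and 16.9, then 38.2, 28.9 and 30.8, then 31.2, 26.1 and 32.1, and on day 4 36.1, 27.0 and 35.4. Wild-type cultures rose by day 1 (1.20 ± 0.21, adjusted p = 1.7e-04) and day 4 (1.31 ± 0.21, adjusted p = 2.8e-05). Their day 0 level was near the floor, so the size of the rise is not measured well and no fold is given. The other cultures had 0.38 to 0.51 with overlap and no call. On days 2 and 4 they lay below wild-type without overlap (-0.65 ± 0.20 and -0.66 ± 0.20, adjusted p = 0.0446 and 0.0497). Each was lost without several mice, on day 2 without 489, 814, 818, 862 or 870 (0.0624 to 0.209) and on day 4 without 814, 818 or 862 (0.1 to 0.319). Without the random effect both were lost (0.0618 and 0.0674), on day 2 also with a common median (0.0636) and on day 4 with the compared arrays alone (0.128). The difference in the change did not pass on any day (adjusted p = 0.128 to 0.287).

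**Figure D5:**
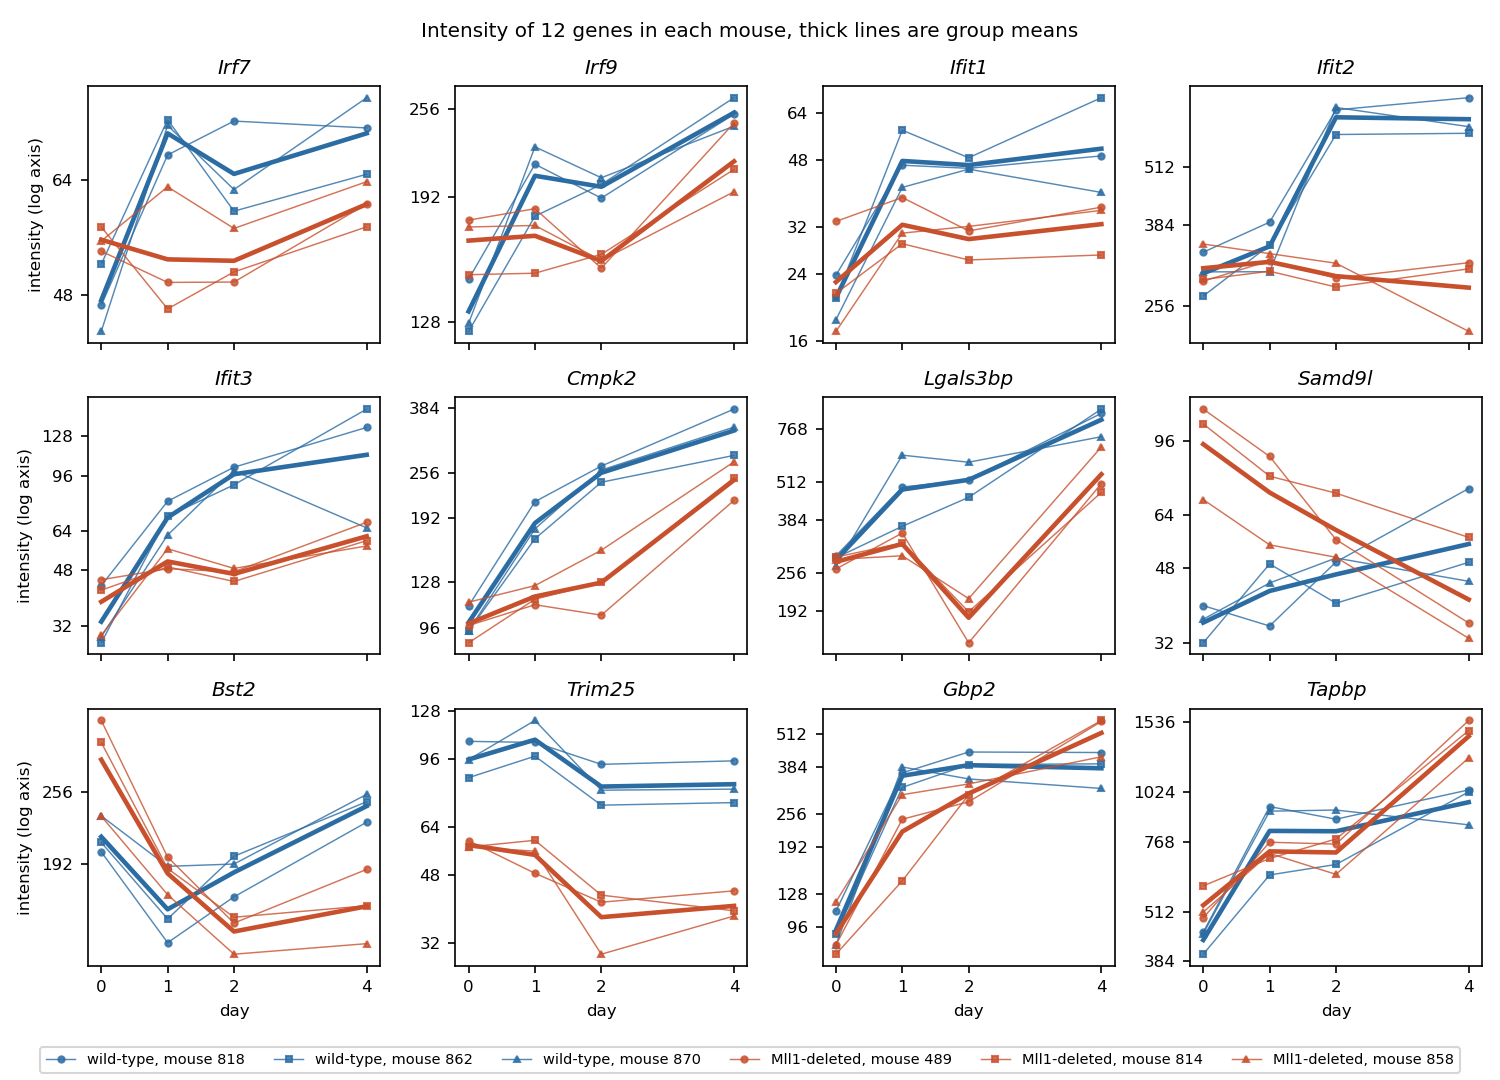
Intensity (log axis) against day for 12 members, 1 thin line per mouse and 1 thick line per group mean, wild-type in blue and the Mll1-deleted label in orange. Ifit2 separates on days 2 and 4 (601 to 721 against 226 to 318), and Trim25 lies lower under the Mll1-deleted label on all 4 days.

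Lgals3bp (probe set 10393573), a secreted glycoprotein that binds galectins, had the largest genotype difference of the effectors on day 2. It read 291, 287 and 269.8 in wild-type cultures on day 0, 492, 365 and 627 on day 1, 519.6, 455 and 594 on day 2, and 862, 890.3 and 722 on day 4. Lgals3bp in cultures labelled Mll1-deleted read 264, 289 and 284 on day 0, 347, 322 and 292 on day 1, 150.5, 190.5 and 211 on day 2, and 505, 473 and 668 on day 4. Wild-type cultures rose throughout (0.77 ± 0.17, 0.88 ± 0.17 and 1.54 ± 0.17, adjusted p = 0.00122, 2.3e-04 and 1.5e-07). Those labelled Mll1-deleted fell below day 0 on day 2 (-0.61 ± 0.17, adjusted p = 0.00918, lost without 489 or 814 at 0.106 and 0.0613) and rose by day 4 (0.96 ± 0.17, adjusted p = 1.2e-04). On day 2 the difference was 2.86-fold (-1.51 ± 0.17, adjusted p = 3.9e-06), that of the 4-day mean was -0.68 ± 0.08 (adjusted p = 0.00218), and the change differed by -1.49 ± 0.24 (adjusted p = 5.2e-04); these held under every alternative. The differences of days 1 and 4 (-0.60 ± 0.17 each, adjusted p = 0.0336 and 0.0371) were lost without 5 and 4 of the mice (0.058 to 0.211 without 489, 814, 818, 858 or 870, and 0.102 to 0.212 without 489, 814, 818 or 862) and with the compared arrays alone (0.144 and 0.0713).

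Cmpk2 (probe set 10395039), a mitochondrial nucleoside monophosphate kinase whose gene neighbours Rsad2 on chromosome 12, rose in both genotypes but later under the Mll1-deleted label. It read 110.3, 94.2 and 94.4 in wild-type cultures on day 0, 213, 169 and 179 on day 1, 267, 241 and 260.0 on day 2, and 382, 285 and 341 on day 4. Cmpk2 in cultures labelled Mll1-deleted read 97.5, 87.4 and 113, then 111, 115 and 125, then 104, 128 and 157, and on day 4 215, 248 and 274. Rises in wild-type cultures were 0.91 ± 0.14, 1.36 ± 0.14 and 1.75 ± 0.14 (adjusted p = 5.9e-05, 1.9e-07 and 3.9e-09), and the other cultures rose by day 4 (1.31 ± 0.14, adjusted p = 6.4e-07). Genotypes did not overlap on days 1, 2 and 4 (-0.67 ± 0.13, -0.9995 ± 0.13 and -0.45 ± 0.13, adjusted p = 0.00205, 2.9e-05 and 0.043). The day 4 call was lost without 489, 814, 818 or 870 (0.123 to 0.208), with the compared arrays alone (0.151) and without the random effect (0.0694). The 4-day mean (-0.53 ± 0.11, adjusted p = 0.0212) was lost without the same 4 mice (0.066 to 0.0793), and the difference in the change on day 2 (-0.99 ± 0.20, adjusted p = 0.00509) without 489 or 870 (0.0509 and 0.0628).

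Rsad2 (viperin), which makes a chain-terminating nucleotide, stayed between 29.99 and 72.4 in all arrays. It rose under the Mll1-deleted label on day 1 (0.54 ± 0.17, adjusted p = 0.0445), where mouse 858 at 72.4 stood far above 489 and 814 at 38.8 and 43.2, and on day 4 (0.50 ± 0.17, adjusted p = 0.0353), and it was lower than in wild-type on day 2 (-0.57 ± 0.17, adjusted p = 0.0389). Each of these calls was lost without at least 4 of the mice, with adjusted p of 0.0616 to 0.334 on day 1 (814, 818, 858, 862 or 870), 0.0546 to 0.19 on day 4 (489, 814, 818 or 862) and 0.0796 to 0.249 between genotypes (489, 814, 818, 862 or 870). The first was also lost with the compared arrays alone (0.235) and the second with a common median (0.0645).

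Oasl2 (probe set 10524621), of the oligoadenylate synthetase family, read 54.2, 78.9 and 66.8 in wild-type cultures on day 0, 102, 100.1 and 129 on day 1, 103, 106 and 123 on day 2, and 127, 201 and 130.3 on day 4. Oasl2 in cultures labelled Mll1-deleted read 73.8, 68.0 and 73.1, then 83.6, 67.7 and 81.1, then 62.0, 71.4 and 83.2, and on day 4 68.6, 98.8 and 96.0. From day 1 on, no array of these cultures reached any wild-type array of the same day. Wild-type cultures rose by 0.73 ± 0.18, 0.74 ± 0.18 and 1.18 ± 0.18 (adjusted p = 0.00331, 0.00217 and 1.2e-05, the first lost without 870 at 0.0602), and the others had 0.11, 0.00 and 0.27 without a call. Genotypes differed on day 2 (-0.62 ± 0.18, adjusted p = 0.0306, lost without 489, 814, 818 or 870 at 0.0654 to 0.163), on day 4 (-0.79 ± 0.18, adjusted p = 0.00761, lost without 489 or 862 at 0.0871 and 0.073 and with the compared arrays alone at 0.0672) and in the 4-day mean (-0.45 ± 0.10, adjusted p = 0.0285, lost without 489, 814, 862 or 870 at 0.084 to 0.116). The change differed on day 4 (-0.91 ± 0.25, adjusted p = 0.0337) but not without 489, 814, 818, 862 or 870 (0.0654 to 0.213), nor with the compared arrays alone (0.0785).

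Bst2, Rtp4 and Samd9l started higher in cultures labelled Mll1-deleted and ended at or below wild-type. Bst2 (probe set 10579532), tetherin, which holds budding virus on the cell surface, read 202, 209 and 232 in wild-type cultures on day 0, 141, 155 and 190.4 on day 1, 169, 198 and 192 on day 2, and 227, 246 and 253 on day 4. Bst2 under the Mll1-deleted label read 339, 311 and 232, then 198, 189 and 170.2, then 152, 156 and 135, and on day 4 188, 163 and 140.3. These cultures fell on all 3 days (-0.65 ± 0.14, -0.98 ± 0.14 and -0.84 ± 0.14, adjusted p = 0.00283, 2.9e-05 and 8.0e-05), the first call being lost with the compared arrays alone (0.0682). Wild-type cultures dipped on day 1 (-0.41 ± 0.14, adjusted p = 0.0304, lost without 814, 818, 862 or 870 at 0.052 to 0.169) and overlapped day 0 again on day 4. The genotype difference went from 0.44 ± 0.13 on day 0 (adjusted p = 0.0273, with overlap at 232, and lost without 489, 814, 818 or 862 at 0.119 to 0.234 and with the compared arrays alone at 0.134) to -0.57 ± 0.13 on day 4 (adjusted p = 0.00679, lost with the compared arrays alone at 0.0503). The change differed by -0.78 ± 0.20 on day 2 (adjusted p = 0.0221, lost without any mouse but 858 at 0.0647 to 0.123) and -1.01 ± 0.20 on day 4 (adjusted p = 0.00317, held under every alternative).

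Rtp4 (probe set 10434778), a receptor-trafficking protein that is interferon-induced, read 64.0, 53.1 and 59.4 in wild-type cultures on day 0, 72.8, 98.5 and 107 on day 1, 67.6, 69.1 and 93.2 on day 2, and 124, 123 and 125 on day 4. Rtp4 in cultures labelled Mll1-deleted read 94.0, 72.2 and 89.4, then 87.3, 81.3 and 65.4, then 60.3, 71.2 and 66.8, and on day 4 65.0, 70.4 and 81.2. It rose in wild-type cultures on day 1 (0.64 ± 0.15, adjusted p = 0.0029, lost without 862 at 0.0841) and day 4 (1.08 ± 0.15, adjusted p = 5.7e-06). Genotypes did not overlap on day 0, where the Mll1-deleted label was higher (0.53 ± 0.16, adjusted p = 0.033, lost without 489, 858, 862 or 870 at 0.0613 to 0.188 and with the compared arrays alone at 0.0506), nor on day 4, where it was lower (-0.79 ± 0.16, adjusted p = 0.0028). The change differed by -1.31 ± 0.22 on day 4 (adjusted p = 8.1e-04). The last 2 calls held under every alternative.

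Samd9l (probe set 10542911), whose product restrains viral translation, read 39.2, 32.0 and 36.4 in wild-type cultures on day 0, 35.1, 49.2 and 44.3 on day 1, 49.7, 39.7 and 50.7 on day 2, and 74.0, 49.6 and 44.7 on day 4. Samd9l in cultures labelled Mll1-deleted read 114, 105 and 69.7 on day 0, 88.1, 79.2 and 54.5 on day 1, 56.1, 72.2 and 50.9 on day 2, and 35.6, 56.8 and 32.8 on day 4. Dividing cultures of the Mll1-deleted label were 2.64-fold higher without overlap (1.40 ± 0.22, adjusted p = 1.5e-04), and by day 4 the ranges overlapped. The day 1 difference (0.77 ± 0.22, adjusted p = 0.0332) was lost without 489, 814, 818, 862 or 870 (0.0562 to 0.209) and with the compared arrays alone (0.0695). Samd9l fell under this label by day 4 (-1.22 ± 0.23, adjusted p = 3.3e-04) and by day 2 (-0.67 ± 0.23, adjusted p = 0.038, with overlap, lost without 489, 814, 862 or 870 at 0.0567 to 0.295 and with the compared arrays alone at 0.0573). It rose in wild-type cultures by day 4 (0.62 ± 0.23, adjusted p = 0.0399, lost without 818, 862 or 870 at 0.0654 to 0.22 and with a common median at 0.0833). The difference in the change on day 4, -1.83 ± 0.33 (adjusted p = 0.00161), was the widest of the 41 members and held under every alternative.

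Of the remaining effectors, Xaf1, a partner of the apoptosis inhibitor XIAP, rose in wild-type cultures on all 3 days (0.59 ± 0.16, 0.45 ± 0.16 and 0.75 ± 0.16, adjusted p = 0.00734, 0.0314 and 5.4e-04), and its arrays did not pass 70.0. The first call was lost without 818 or 870 (0.098 and 0.0954) and the second without 818 or 870 (0.0987 and 0.147) and with a common median (0.0901). Ifi44 rose there on day 2 (0.42 ± 0.14, adjusted p = 0.0255, lost without 818 at 0.216, with the compared arrays alone at 0.0624 and with a common median at 0.0845) and day 4 (0.67 ± 0.14, adjusted p = 6.5e-04). Neither changed under the Mll1-deleted label past the threshold (0.00 to 0.25), nor did the change differ between genotypes (adjusted p = 0.14 to 0.611). Mx1 and Mx2, dynamin-like GTPases that trap viral particles, had group means of 11.3 to 14.6 and 12.2 to 17.4, near the floor, and no call.

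Of the 3 inducible GTPases, Gbp2 rose in both genotypes on all 3 days. Gbp2 (probe set 10496592), a guanylate-binding protein of vacuole defence that interferon gamma induces strongly, had the largest rise of all members. It read 109.9, 89.9 and 82.1 in wild-type cultures on day 0, 365, 321 and 384 on day 1, 437, 392 and 346 on day 2, and 435, 394 and 318 on day 4. Gbp2 in cultures labelled Mll1-deleted read 82.0, 75.7 and 119 on day 0, 244, 143 and 302 on day 1, 284, 301 and 331 on day 2, and 569, 574 and 419 on day 4. Wild-type cultures reached their level by day 1 (3.81-fold, 1.93 ± 0.21, adjusted p = 6.1e-07) and held it (4.18-fold and 4.07-fold). Under the Mll1-deleted label the means went up at each step, to 2.42-fold, 3.37-fold and 5.70-fold over day 0 (1.28 ± 0.21, 1.75 ± 0.21 and 2.51 ± 0.21, adjusted p = 3.1e-04, 5.0e-06 and 2.0e-08, the first lost with the compared arrays alone at 0.0503). The genotypes were apart on day 1 (-0.70 ± 0.21, adjusted p = 0.0469, lost without 489, 814, 818, 862 or 870 at 0.108 to 0.392 and with the compared arrays alone at 0.185), and the change differed past the threshold on no day (adjusted p = 0.337 to 0.695).

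Gbp3 (probe set 10496580), in the same cluster on chromosome 3 with 1 coding gene between, had no call in wild-type cultures, which read 318, 346 and 302 on day 0, 361, 364 and 339 on day 1, 329, 359 and 315 on day 2, and 249, 294 and 208 on day 4, below every day 0 array (-0.38 ± 0.36, adjusted p = 0.456). Gbp3 under the Mll1-deleted label read 141, 76.6 and 169.7, then 370.2, 264 and 229, then 281, 263 and 108, and on day 4 279.8, 230.2 and 80.7, with mouse 858 far below 489 and 814 on days 2 and 4. It was 2.62-fold lower on day 0 (-1.39 ± 0.36, adjusted p = 0.0121, lost without 814, 818, 862 or 870 at 0.067 to 0.104) and rose by day 1 (1.20 ± 0.36, adjusted p = 0.0316, lost without any mouse but 858 at 0.0655 to 0.222 and with the compared arrays alone at 0.0697). Irgm1 (probe set 10385500), a GTPase of autophagy, had no call. It read 174, 169 and 165 in wild-type cultures on day 0, 166, 189 and 192 on day 1, 176, 147 and 148 on day 2, and 201, 176 and 167 on day 4. Irgm1 under the Mll1-deleted label read 146, 121 and 179, then 194, 160.3 and 134, then 144, 134 and 135, and on day 4 168, 180.0 and 107.

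The 5 genes of MHC class I presentation showed 0 differences between the genotypes in the change (at an unadjusted p under 0.05, Tapbp on days 1 and 2 and B2m on day 4). With 5 genes, 0 is near the share of all genes, which was 1.15% to 3.27% in each direction. Tapbp (probe set 10444068), tapasin, which holds class I molecules at the peptide transporter, read 454, 399.9 and 451 in wild-type cultures on day 0, 942, 634 and 917 on day 1, 876, 673 and 924 on day 2, and 1038, 1027 and 848 on day 4. Tapbp in cultures labelled Mll1-deleted read 494, 595 and 511 on day 0, 766, 697 and 718 on day 1, 758, 781 and 636 on day 2, and 1553, 1465 and 1250.0 on day 4. It rose in wild-type cultures by 0.91 ± 0.15, 0.91 ± 0.15 and 1.15 ± 0.15 (adjusted p = 7.0e-05, 4.3e-05 and 1.5e-06). Under the Mll1-deleted label the rise was 0.45 ± 0.15 and 0.44 ± 0.15 on days 1 and 2 (adjusted p = 0.0479 and 0.0331) and 1.42 ± 0.15 on day 4 (adjusted p = 3.2e-07). On day 4 Tapbp was the 1 member higher under that label (0.55 ± 0.15, adjusted p = 0.0221), without overlap. This call was lost without 489, 814 or 870 (0.0959 to 0.152) and with the compared arrays alone (0.0593). The day 1 rise was lost without any mouse but 862 (0.0556 to 0.377), with the compared arrays alone (0.0864) and with a common median (0.0556), and the day 2 rise without 489, 814 or 858 (0.0636 to 0.26).

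Tap2 (probe set 10444268), a subunit of the peptide transporter, read 152, 167 and 184 in wild-type cultures on day 0, 156, 161 and 195 on day 1, 189.6, 198 and 200.2 on day 2, and 249, 294 and 250.3 on day 4. Tap2 under the Mll1-deleted label read 148, 126 and 153, then 138, 118 and 167, then 146, 157 and 175, and on day 4 311, 262 and 251.1. Both genotypes rose without overlap by day 4, by 0.66 ± 0.13 and 0.95 ± 0.13 (adjusted p = 3.1e-04 and 9.6e-06), and both calls held under every alternative. Tap1, the other subunit, fell in wild-type cultures on day 2 (-0.49 ± 0.12, adjusted p = 0.0036, lost without 818 at 0.0829). It rose by day 4 under the Mll1-deleted label (0.33 ± 0.12, adjusted p = 0.0481) with overlap but not without 489, 818, 858, 862 or 870 (0.0526 to 0.448), nor with the compared arrays alone (0.144) or a common median (0.156). Psmb8, an immunoproteasome subunit, had no call and group means of 55.4 to 71.1.

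B2m (probe set 10475414), the light chain of every class I molecule, read 1306, 819.9 and 932 in wild-type cultures on day 0, 1409, 1104 and 1152 on day 1, 1355, 919 and 926 on day 2, and 2458, 1272 and 1215 on day 4. B2m in cultures labelled Mll1-deleted read 2110.5, 2638 and 1389 on day 0, 2364, 2454 and 1479 on day 1, 1933, 2160.2 and 1097 on day 2, and 1650.0, 1574 and 1043 on day 4. On all 4 days 818 was the highest of the wild-type mice and 858 the lowest of the others. The Mll1-deleted label was higher on day 0 without overlap (0.98 ± 0.25, adjusted p = 0.0121, lost without 489, 814, 862 or 870 at 0.082 to 0.131), and no other B2m comparison passed.

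Across the roles, 10 of the 41 members had no call in any of the 14 comparisons: Ifih1, Dhx58, Zbp1, Irf1, Stat2, Sp100, Mx1, Mx2, Irgm1 and Psmb8. Of the 12 members called in a difference in the change, 9 had a RefSeq promoter, and of those 2 held a core (Ifit3 and Bst2), against 11 of the 23 other measured members with a promoter.

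The other genes of the pathway were taken as lists by function, chosen like the members with earlier results known. Of 47 other interferon-stimulated genes, 43 were measured, and 5, 8 and 16 of them rose in wild-type cultures on days 1, 2 and 4 (all genes 11.7%, 15.6% and 17.1%) while 3, 4 and 5 fell (13.8%, 18% and 20.4%). The first 2 counts of rises are near the share of all genes. Under the Mll1-deleted label 0, 0 and 5 rose (all genes 5.87%, 9.41% and 13.9%) and 6, 6 and 9 fell (6.52%, 13.9% and 15.7%), the falls of day 2 again near that share. The change was lower under that label for 2, 6 and 5 of the 43 (all genes 1.15%, 2.62% and 2.56%) and higher for 0, with medians of -0.22, -0.29 and -0.28 (all genes -0.02, -0.02 and 0.03). These changes start from a day 0 on which 8 of the 43 were higher under that label and 0 lower (all genes 5.41% and 4.71%). On days 1, 2 and 4, 0, 1 and 0 were higher (3.61%, 4.01% and 3.73%) and 4, 5 and 9 lower (3.84%, 4.73% and 2.73%). Trim30a, a ligase that restrains inflammatory signalling, had group means of 52.4, 88.4, 104.8 and 171.7 over the 4 days in wild-type cultures and 50.9, 47.3, 40.8 and 51.7 in the others. Its change differed by -0.86 ± 0.19, -1.32 ± 0.19 and -1.69 ± 0.19 (adjusted p = 0.0139, 2.0e-04 and 1.9e-05). Ifi27 went from 215.9 to 629.6 in wild-type cultures and from 314 to 538 in the others (difference in the change on day 4 -0.77 ± 0.19, adjusted p = 0.0175). Pml, the organiser of nuclear bodies, fell by day 4 in both genotypes, from 363 to 192 and from 602 to 211 (-0.92 ± 0.18 and -1.52 ± 0.18, adjusted p = 2.8e-04 and 1.8e-06). Slfn9 fell in both as well (-1.83 ± 0.20 and -1.52 ± 0.20, adjusted p = 1.6e-07 and 5.0e-06).

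The interferon genes themselves were dim. Of 21 listed, 18 were measured, and 5 to 7 of the 18 were near the floor in a group. Ifnb1 had group means of 26.0 to 32.6 and Ifng of 25.2 to 31.6, with no call, and these 2 were named after their values were seen. In wild-type cultures 0, 2 and 2 of the 18 rose, no larger a share than over all genes (11.7%, 15.6% and 17.1%), and 0, 0 and 1 fell (all genes 13.8%, 18% and 20.4%). In the other cultures 0 rose (all genes 5.87%, 9.41% and 13.9%) and 0, 0 and 1 fell (6.52%, 13.9% and 15.7%). In the change 0 differed (1.15% to 3.27% of all genes in each direction). Of the few called, Ifna5 rose in wild-type cultures on days 2 and 4 (0.35 ± 0.13 and 0.39 ± 0.13, adjusted p = 0.0426 and 0.023), and Ifnl3 on day 2 (0.61 ± 0.14, adjusted p = 0.00208). The calls of Ifna11 and Ifna12 came from group means of 5.63 to 14.1, near the floor.

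Of 20 genes of receptors and Jak-Stat signalling 19 were measured, and 1, 0 and 1 differed in the change on days 1, 2 and 4, each higher under the Mll1-deleted label (all genes 1.28%, 2.18% and 3.27%). In wild-type cultures 4, 2 and 3 of the 19 rose (all genes 11.7%, 15.6% and 17.1%) and 3, 6 and 6 fell (13.8%, 18% and 20.4%). In the others 2, 2 and 3 rose (5.87%, 9.41% and 13.9%) and 1, 1 and 4 fell (6.52%, 13.9% and 15.7%). With 19 genes, several of these counts are near the share of all genes. Jak1, a receptor kinase, was lower under the Mll1-deleted label on day 1 (-0.55 ± 0.13, adjusted p = 0.00714). Stat3 fell by day 4 in wild-type cultures (-0.65 ± 0.12, adjusted p = 1.8e-04), with a difference in the change of 0.72 ± 0.17 (adjusted p = 0.0159). The inhibitor gene Pias1 rose by day 4 in both genotypes (0.66 ± 0.10 and 0.30 ± 0.10, adjusted p = 2.2e-05 and 0.0352), and the phosphatase gene Ptpn2 fell in both (-0.78 ± 0.14 and -0.48 ± 0.14, adjusted p = 7.2e-05 and 0.00902).

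Of 17 genes of nucleic acid sensing 16 were measured, and 3, 3 and 1 rose in wild-type cultures (11.7%, 15.6% and 17.1% of all genes) while 6, 7 and 8 fell (13.8%, 18% and 20.4% of all genes). In the others 2, 2 and 1 rose (5.87%, 9.41% and 13.9% of all genes) and 3, 4 and 4 fell (6.52%, 13.9% and 15.7% of all genes). Over all genes, too, more fell than rose in each of these comparisons, but the share that fell was larger among the 16 genes each time. Sting1, the adaptor of cytosolic DNA sensing, fell from 443 to 59.5, 50.6 and 50.6 in wild-type cultures and from 333 to 103, 56.0 and 54.5 in the others. Its fall was -2.90 ± 0.31 on day 1 in the former and -1.69 ± 0.31 in the latter (adjusted p = 3.7e-07 and 6.8e-04). Rnaseh2b, a subunit of the nuclease that removes RNA from DNA, differed in the change on days 2 and 4 (0.62 ± 0.16 and 0.76 ± 0.16, adjusted p = 0.0271 and 0.00625). Ikbke, a kinase that activates interferon regulatory factors, differed the other way on day 2 (-0.59 ± 0.17, adjusted p = 0.0416).

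Of 14 other inducible GTPases, 9 were measured, 5 of them near the floor. Gbp7 was 2.55-fold lower under the Mll1-deleted label on day 0 (-1.35 ± 0.21, adjusted p = 1.3e-04), and Gbp9 fell by day 4 in both genotypes (-1.61 ± 0.23 and -1.15 ± 0.23, adjusted p = 5.6e-06 and 4.8e-04). Irgm2 rose by day 4 in both (1.34 ± 0.25 and 0.77 ± 0.25, adjusted p = 1.4e-04 and 0.021). Of 32 other antigen presentation genes 28 were measured, and 0 differed in the change (1.15% to 3.27% of all genes in each direction). The class I heavy chain gene H2-K1 was lower under the Mll1-deleted label in the 4-day mean (-0.63 ± 0.07, adjusted p = 0.00168), and H2-D1 rose by day 4 in wild-type cultures (1.24 ± 0.25, adjusted p = 3.0e-04). Psmb10, an immunoproteasome subunit, fell on all 3 days in both.

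Markers of immune and vascular cells were mostly dim, as were most members. Of 14 microglia and macrophage markers, only Aif1 and Itgam were near the floor, in all 8 groups. The summed intensity of the 14 was 519 to 636 in 7 groups and 556 to 744 in cultures labelled Mll1-deleted on day 0. In that group Cd68, a lysosomal protein, had a mean of 136.4 against 71.1 in wild-type cultures, the 1 called marker of the 14 between the genotypes. The 8 lymphocyte markers summed to 191 to 264 with 0 calls, and Cd3g, Cd79a and Ms4a1 were near the floor in all groups. The 8 endothelial markers summed to 375 to 500 in 7 groups and 479 to 723 in cultures labelled Mll1-deleted on day 0. Of the 8, 0 or 1 were near the floor in a group. The highest group mean on day 0 was 177.9 in wild-type cultures and 278.4 in the others. On that day 1 of the 8 was called higher under the Mll1-deleted label and 0 lower (all genes 5.41% and 4.71%).

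Other markers moved with the groups. The 10 pericyte and fibroblast markers summed to 2505 to 3944 in wild-type cultures on day 0 and 5478 to 12832 in those labelled Mll1-deleted. Between the genotypes on that day, Col1a1 and Col1a2 were called higher under that label and Rgs5 lower, and Lum was near the floor in all 8 groups. Of the members, 5 were called higher on that day (Parp14, Bst2, Rtp4, Samd9l and B2m) and 3 lower (Nmi, Trim25 and Gbp3). Over all genes the shares were 5.41% and 4.71%. The 8 member calls became 2 without mouse 862, and 2 higher and 4 lower with the compared arrays alone. Of the 8 neuroblast markers, 5, 8 and 8 rose in wild-type cultures on days 1, 2 and 4 (medians 1.88, 2.85 and 1.99) and 2, 4 and 6 in the others (0.12, 1.07 and 1.20). Over all genes 11.7%, 15.6% and 17.1% rose in the former and 5.87%, 9.41% and 13.9% in the latter. The neuroblast markers summed to 10761 to 14955 in wild-type cultures on day 2 and 3226 to 7170 in the others, with 6 called lower (4.73% of all genes). On that day 7 members had a lower change under the Mll1-deleted label (2.62% of all genes). The 8 oligodendrocyte lineage markers summed to 1275 to 1625 in wild-type cultures on day 4 and 3364 to 7990 in the others, with 6 called higher (3.73% of all genes). The 10 neural stem cell and astroglial markers held 6 called lower under the Mll1-deleted label on day 0 (4.71% of all genes), with sums of 31426 to 39632 against 44371 to 48310. The part of these markers in the interferon results was not tested.

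As a description, the genes outside the members whose log2 values over the 24 arrays were most like the mean standardised profile of the members were Arsa (Pearson r = 0.89), Slc48a1 (0.87), Prune2 (0.86), Cxcl16 (0.85), Ikbke (0.84), Ezh1 (0.84), Tbc1d17 (0.84) and Mr1 (0.83). Among the members, which are part of that mean, r ran from 0.88 (Irf9) to -0.25 (Eif2ak2). The points share arrays, mice and days.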

How the data were processed

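Gene expression was measured on Affymetrix arrays in 24 cultures from 6 mice, 8 groups of 3 arrays. Per the submitters' processing notes the authors used Affymetrix Power Tools with RMA (background correction, quantile normalisation and summary per probe set) and build mm9, with versions not given in the sources used here. The deposited table holds intensity values of 3.48 to 30298, which were taken as linear from their range, and log2 was applied here. It also holds a score per probe set, a cross-hybridisation code as deposited, whose meaning the file does not give. The labels name total RNA in one field and polyA RNA in another. RMA leaves no count or depth, so precision rests on the number of arrays.

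Of 28350 probe sets, 22232 carried a single symbol, 2980 several and 3138 none. Symbols were brought up to date through RefSeq for 2127 probe sets. For 576 genes with several probe sets the one with the highest mean was used, which left 21072 genes. Tests were run with limma 3.58.1 in R 4.3.3 on all 24 arrays as 8 group means, with Benjamini-Hochberg adjustment over all genes of a comparison and a threshold of 0.05, and checked on simulated data. Comparisons of genotypes on a day took the mouse as random (a consensus correlation of 0.165), and the mean of 4 days used 6 mouse means. The mouse numbers in the labels pair the arrays: 34 of 36 pairs of arrays from the same mouse had correlated deviations from their group means (r over 0.1, median 0.259). The mice are the replicates. Alternatives were the mouse as a fixed block or no random effect, only the arrays compared, a common array median, only code 1, a filter on dim genes, the mean of all probe sets, and each mouse left out. RMA's background correction cannot be changed from the deposited table.

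The members, the lists and the rule for named genes were chosen with earlier results of these data known. Values per array are given for up to 3 members per role with the widest range of group means and for Irf7, Stat2, Irf9, Isg15 and B2m. Up to 4 genes per list of other pathway genes are named by smallest p. A further gene, which the rule names whatever its values, is not reported here. The 8 genes most like the members are named by Pearson r. Figures were drawn with matplotlib 3.10.9 in Python 3.11.15 (pandas 2.3.3).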

Additional observations from a re-analysis of the deposited data

Results flagged for a closer look

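The change from day 0 differed between the genotypes past limma's threshold, adjusted over all genes, in 18 cases among 12 members, each lower under the Mll1-deleted label. Differences are Mll1-deleted minus wild-type in log2 units, with 3 mice per genotype. On day 1 they were -0.67 for Irf7 and -0.61 for Irf9. On day 2 they were -0.68 for Irf9, -0.86 for Parp14, -1.18 for Ifit2, -1.26 for Ifit3, -0.99 for Cmpk2, -0.78 for Bst2 and -1.49 for Lgals3bp. On day 4 they were -0.56 for Irf9, -0.78 for Usp18, -0.74 for Parp14, -1.24 for Ifit2, -1.07 for Ifit3, -0.91 for Oasl2, -1.01 for Bst2, -1.31 for Rtp4 and -1.83 for Samd9l. Those of Parp14, Ifit2 and Lgals3bp on day 2 and of Usp18, Ifit2, Bst2, Rtp4 and Samd9l on day 4 held under every alternative run, and the other 10 were lost under at least 1. Groups of 3 arrays are too small for a test of single outlying arrays.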

How the results depend on the processing

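The 14 comparisons gave 139 calls of members. Of these, 70 held under all of the alternatives run for them, 69 were lost under at least 1, and 0 changed sign. Restricting the genes to code 1 (20968 genes), filtering dim genes (17298 genes, 38 members) and averaging probe sets lost 0 of 139. A common array median lost 12 of 139, the fit without the random effect 4 of 33, and the fit to the compared arrays alone, which has fewer samples, 33 of 133. Leaving out a mouse, which also leaves fewer samples, lost 17 (858) to 47 (489) of 139. In comparisons of days within a genotype, a mouse of the other genotype enters only through the shared estimate of the spread. With the mouse as a fixed block, 0 of 100 calls were lost, and the counts of members with a different change became 4 on day 1 and 12 on day 2. In the fit to the compared arrays alone the counts became 0 (from 6) on day 1 under the Mll1-deleted label, 2 (from 6) and 4 (from 11) between genotypes on days 1 and 4, and 0 (from 2) and 5 (from 9) in the change on days 1 and 4. A common median left 1 of 2 in the change on day 1. The share of all called genes that were higher moved under it from 46.5% to 33.6% and 45.6% to 34.1% in wild-type cultures on days 2 and 4, from 46.9% to 34.3% under the Mll1-deleted label on day 4, and from 45.5% to 61.0% in the change on day 2.

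With 1 mouse left out, the called members numbered 10 to 13, 13 to 18 and 17 to 21 in wild-type cultures on days 1, 2 and 4 and 2 to 4, 4 to 9 and 10 to 16 under the Mll1-deleted label. Between genotypes they numbered 2 to 6, 2 to 7, 5 to 9 and 6 to 12 on days 0, 1, 2 and 4 and 3 to 10 in the 4-day mean. In the change they numbered 0 to 2, 3 to 11 and 5 to 11. Signal over background limits the dim members: 21 of 41 had a mean under 100, and 3 were near the floor in every group.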

Other observations

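A probe set for Psmb9 (10450145), whose symbol cell has a blank second entry, stayed out of the tests. Psmb9 is an immunoproteasome subunit, and its group means were 173, 203, 184 and 207 in wild-type cultures on days 0, 1, 2 and 4 and 161, 188, 201 and 226 in cultures labelled Mll1-deleted. A second probe set for Eif2ak2 (10452978), shared with another symbol, had group means of 702, 620, 592 and 582 in wild-type cultures and 672, 652, 623 and 659 in the others. Unlike the probe set that was tested, it overlapped between days 0 and 4 in both genotypes. A second probe set for Stat2 (10367221), shared with another symbol and not tested, had group means of 17.2 to 19.9, near the floor.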
